A study of Mus musculus with 31 samples.

Results

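The collagen chains on the array were the genes whose symbol is Col, a number, the letter a and a number with nothing after it. There were 44 of them, read by 91 of the 56605 array features, and 40 of the 44 (70 features) passed the filter on dim signals and were tested among 19797 genes. They were grouped by role into 11 fibrillar chains, all tested, 9 basement membrane chains, of which 7 were tested, and 24 other chains, of which 22 were tested. Each was measured in the distal colon of BALB/c mice, a few weeks old on arrival, on 31 one-colour Agilent arrays with 1 mouse per array. All mice carried the colorectal cancer model: an injection of azoxymethane (AOM), a carcinogen, a week before the start, and dextran sulfate sodium (DSS), which inflames the colon, in the drinking water of the first days. Gavage began on the same day as DSS, with water in CRC mice and 5 mg/kg bw/day of E171, the food colour titanium dioxide, in CRC + E171 mice, so the mice of 2 days were sampled while DSS was given. Both arms were sampled after 2, 7, 14 and 21 days, with 4 arrays per group, from 2 males and 2 females, except CRC at 21 days with 3 arrays (1 male and 2 females). Mice without AOM and DSS were not analysed here, so every difference below is between tissues that had both agents.

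Collagens are secreted proteins of 3 chains wound into a triple helix, in which glycine recurs at a fixed spacing (the Gly-X-Y repeat). Fibrillar collagens assemble into the tensile fibrils of the submucosa and the vessel walls and are made mainly by fibroblasts and smooth muscle. Basement membrane collagens form the sheets under epithelium, endothelium and muscle, and the others decorate fibrils, form filaments or small networks, or sit in the cell membrane. In the gut, collagens are laid down and broken down again when a mucosa is injured and repaired.

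The repeat is visible in the array's own 60-base features, of which 4 are shown because they lie in the triple helix of 4 different chains, of which Col5a3 and Col11a2 are fibrillar. Capitals mark the glycine codons, which fill each glycine position of the frame: 6 of 6 in Col6a3, 7 of 7 in Col5a3, 6 of 6 in Col15a1 and 6 of 6 in Col11a2.
Col6a3: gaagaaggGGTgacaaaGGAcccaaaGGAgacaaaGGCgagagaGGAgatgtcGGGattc
Col5a3: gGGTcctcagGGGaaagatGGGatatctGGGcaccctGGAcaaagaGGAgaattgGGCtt
Col15a1: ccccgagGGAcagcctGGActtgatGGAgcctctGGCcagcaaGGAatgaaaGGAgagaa
Col11a2: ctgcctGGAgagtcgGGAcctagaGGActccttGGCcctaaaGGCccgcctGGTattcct
By the array's annotation on mouse build mm9 they map to chr1:92689602-92690594, chr9:20590066-20590795, chr4:47283786-47283845 and chr17:34189287-34189453. The spans longer than 60 bases cross an intron or more. These chains share the repeat but not the order of the bases.

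Values are the log2 of a gene's signal minus the log2 of its array's 75th percentile, so 0 lies at that percentile. Signals of different genes cannot be ranked against each other on this scale. Between 67.4 and 78.9% of an array's spots exceeded background clearly, and 8 of 9 colon epithelium markers were above background on all 31 arrays. In CRC 14 days, the array labelled male 2 showed a female-like level of Xist (-1.6, against -2.34 to -0.7 in 16 females and -8.51 to -6.53 in the other 14 males). The colon epithelium marker list stood apart on 3 arrays: its level, relative to the mean over the 31 arrays, was -5.19 and -2.41 on male 1 and male 2 of CRC 7 days and -1.51 on male 2 of CRC + E171 14 days. On the other arrays it ran from -0.07 to 1.09. On the same 3 arrays the neutrophil list was at 4.1, 4.06 and 3.71 and the fibrillar collagens were at 0.69, 1.13 and 1.18, their highest levels of all. Male 1 of CRC 7 days also had skeletal muscle markers at 7.38 and squamous epithelium markers at 4.95, and male 2 had pancreatic acinar markers at 7.38. The females of CRC 7 days were not free of such signals, with pancreatic acinar markers at 6.18 on female 1 and skeletal muscle markers at 2.39 on female 2, against -2.61 to -0.92 and -1.07 to -0.19 on the CRC + E171 arrays of that day. On other days pancreatic acinar markers were at 9.27 on female 2 of CRC + E171 2 days, 9.35 on female 2 of CRC + E171 21 days and 4.29 on male 2 of CRC 2 days. The part of these tissues in the collagen results was not tested. The main results at 7 and 14 days are given with and without the 3 arrays low in colon epithelium markers. The counts of lower collagens at 2 and 21 days are given with all arrays only. The distal hindgut position markers (Hoxa13, Hoxb13, Hoxd12 and Hoxd13) stood apart on 3 other arrays, at -7.61 on female 2 of CRC + E171 7 days and at -5.94 and -7.23 on females 1 and 2 of CRC + E171 14 days, and the collagen counts with E171 on these days are also given without them. In bulk tissue, fewer collagen-producing cells and less RNA per cell cannot be told apart.

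**Figure D1:**
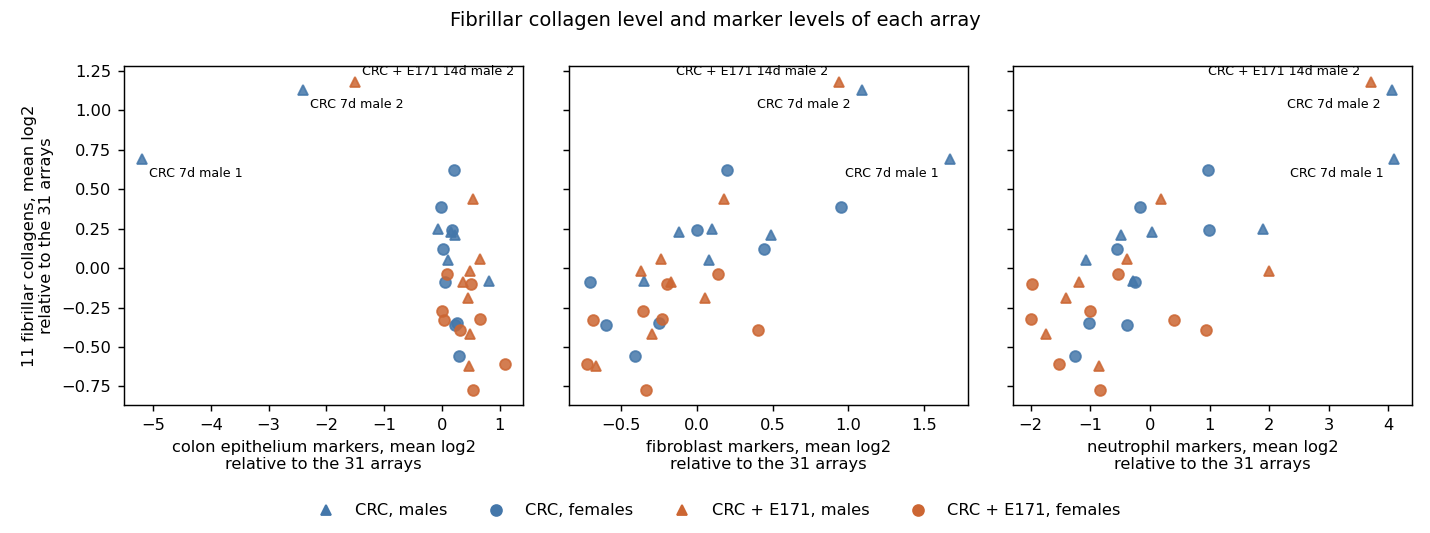
Mean log2 level of the 11 fibrillar collagens (vertical axis) against that of the colon epithelium, fibroblast and neutrophil markers (horizontal axes), each relative to the mean over the 31 arrays, with 1 point per array. The 3 named arrays hold the highest fibrillar levels (0.69, 1.13 and 1.18) and the lowest colon epithelium levels (-5.19, -2.41 and -1.51).

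With E171, more collagen genes were lower than higher after 7, 14 and 21 days and not after 2 days, but not at 7 days without the 2 CRC males nor at 14 days without the 2 E171 females, and few single genes passed the thresholds (a linear fold change of 1.5 or more and an unadjusted p under 0.05). The balance at 21 days is given with all arrays only, of which 3 were CRC. At 7 days 29 of 40 were lower, with a median log2 difference of -0.37, against 50.8% of all genes lower and a median of -0.01. The 5 that passed were all lower: Col8a1, Col5a1, Col4a2, Col4a1 and Col1a1. Among all genes 5.48% passed lower and 6.93% higher on that day. A single array ended these calls. Without male 1 of CRC 7 days none of the 5 passed and Col24a1, a fibrillar chain, alone did (1.96% of all genes passed lower). Without male 2 of CRC 7 days Col8a1 alone of the 5 passed, with Col14a1 lower and Col6a5 higher (4.49% of all genes passed lower and 4.27% higher). The median over the collagens was -0.26 and -0.14 in these settings. Without the 2 male arrays of CRC 7 days, 18 of 40 collagens were lower, the median was 0.06, and Col24a1 alone passed (log2 fold change of -0.86, unadjusted p = 0.0389, adjusted p = 1), with 1.25% of all genes passing lower. Without female 2 of CRC + E171 7 days 30 of 40 were lower (median -0.46), and Col5a1 and Col8a1 alone passed, where 4.71% of all genes passed lower. With scan day as a block Col8a1 alone passed (-1.41 ± 0.55, limma adjusted p = 0.424), where 3.62% of all genes passed lower, and Col1a1, Col5a1, Col4a1 and Col4a2 did not (-0.89, -1.07, -0.97 and -1.05). No collagen gene had a limma adjusted p under 0.05 on any day, nor did any of the 19797 genes in these 4 comparisons.

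**Figure D2:**
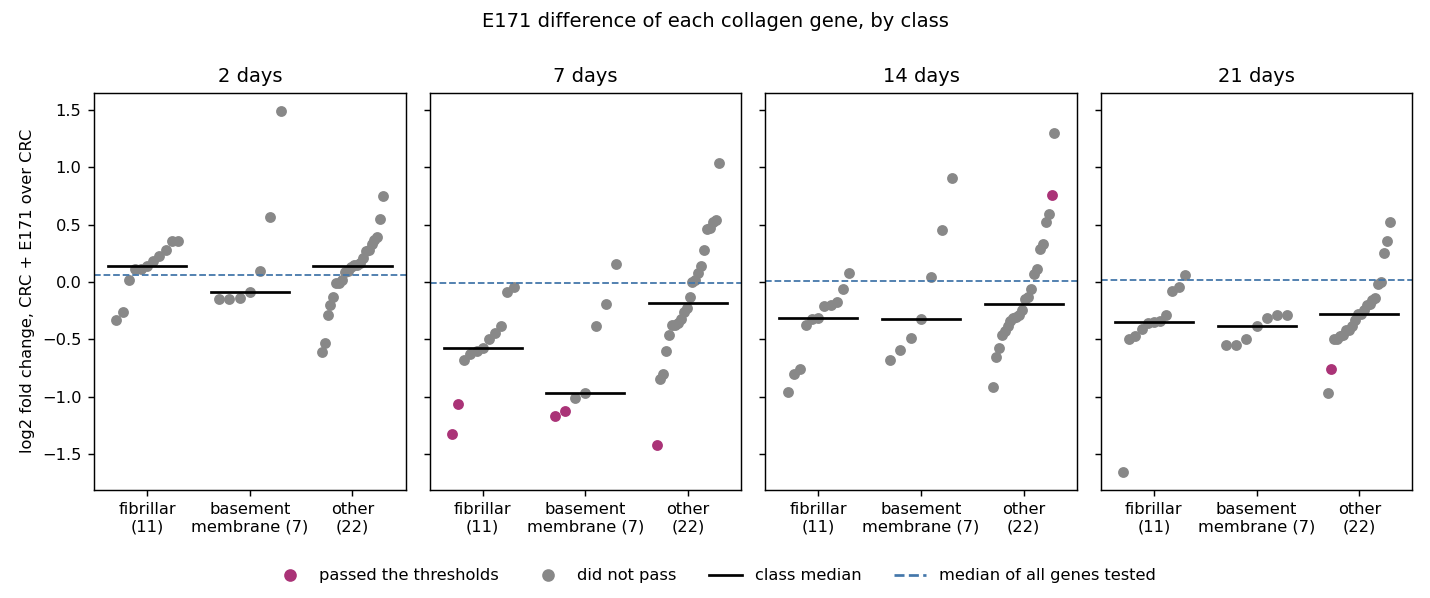
Log2 fold change of CRC + E171 over CRC for each collagen gene (points), by class and day, with the class median as a bar and the median of all genes tested as a dashed line. At 7 days the medians are -0.57 for fibrillar, -0.97 for basement membrane and -0.18 for other collagens, and 5 genes pass the thresholds.

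Among the fibrillar chains at 7 days 11 of 11 were lower (median log2 difference of -0.57), and 2 passed. Without the 2 CRC male arrays 6 of 11 were lower, with a median of -0.04. Col1a1 (chr11:94936224-94953042, GRCm38.p6) encodes the alpha 1 chain of type I collagen, the main collagen of fibrous tissue. Its log2 levels were 1.92 and 1.89 in the males and 0.42 and 1.24 in the females of CRC 7 days, and 0.51, 0.6, 0.38 and -0.29 in CRC + E171. Female 1 of CRC thus lay inside the range of the E171 arrays, and the other 3 CRC arrays lay above it. The fold change was -1.06 ± 0.41 (SE, limma; unadjusted p = 0.0153, adjusted p = 0.22; exact permutation p = 0.0857, where 4 against 4 arrays cannot go below 0.0286), and -0.53 ± 0.48 without the 2 CRC males. In CRC the levels were 1.14, 1.14, 0.78 and 0.52 at 2 days, 1.43, 0.89, 1.31 and 1.68 at 14 days and 0.94, 1.27 and -0.09 at 21 days. In CRC + E171 they were 1.37, 1.56, 0.95 and 0.64 at 2 days, 0.18, 2.19, 0 and -0.09 at 14 days and 0.46, 0.37, 0.78 and -0.23 at 21 days. On these days the groups overlapped, and at 14 days the E171 arrays other than male 2 lay below every CRC array.

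Col5a1 (chr2:27886381-28039510) encodes the main chain of type V collagen, which starts fibrils and limits their width. At 7 days its levels were 3.73, 4.13, 1.76 and 2.31 in CRC and 1.77, 2.07, 1.61 and 1.18 in CRC + E171. The 2 CRC males were above every other array of that day, and the CRC females overlapped with the E171 arrays. The log2 fold change was -1.32 ± 0.49 (SE; adjusted p = 0.214, exact permutation p = 0.0857), and -0.37 ± 0.53 without the 2 CRC males. At 14 days the CRC levels of 2.93, 2.25, 2.72 and 2.9 were above 3 of the 4 E171 levels (1.46, 3.82, 1.04 and 1.29). Col1a2, the partner chain of Col1a1 in type I collagen, had levels of 2.11, 2.32, 0.85 and 1.26 in CRC and 1.06, 1.61, 0.7 and 0.65 in CRC + E171 at 7 days. Col3a1, the chain of type III collagen of distensible tissues, had 2.39, 2.21, 0.67 and 1.12 against 1.08, 1.41, 0.91 and 0.58. Both had the same order of arrays by sex in CRC, with the males above the females, and neither passed (log2 fold changes of -0.63 ± 0.42 and -0.6 ± 0.39, adjusted p of 0.45 and 0.439). The difference without the 2 CRC males was -0.05 for Col1a2 and 0.1 for Col3a1.

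The differences of the remaining fibrillar chains at 7 days lay between -0.68 (Col5a2) and -0.04 (Col2a1), and none of them passed. Col2a1, the chain of cartilage fibrils, varied widely within groups (pooled SD of 1.47), with levels from -2.87 to 0.33 in CRC + E171 and from -2.02 to -0.39 in CRC at 7 days. Its largest difference was at 21 days (0.86, 0.93 and -2.23 in CRC, -1.56, -1.62, -1.42 and -2.59 in CRC + E171; log2 fold change of -1.65 ± 1.06, adjusted p = 0.889).

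The promoters of 3 chains are shown because Col5a1 and Col8a1 had the largest differences at 7 days and Col1a2 is the type I chain for which RefSeq's promoter table had an entry. Each runs 5′ to 3′ up to the base before the gene's annotated start on GRCm38.p6. Capitals mark the letters CCAAT, the letters TATAAA and the letters GGGCGG on either strand, so that a GGGCGG on the other strand reads CCGCCC, and none of the motifs contains another.
Col1a2, chr6:4505368-4505617, plus strand: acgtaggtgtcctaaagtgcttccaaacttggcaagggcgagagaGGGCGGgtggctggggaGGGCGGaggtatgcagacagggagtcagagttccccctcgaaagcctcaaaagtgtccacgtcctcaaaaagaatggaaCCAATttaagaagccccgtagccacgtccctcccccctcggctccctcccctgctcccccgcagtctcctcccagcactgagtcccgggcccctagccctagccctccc
Col5a1, chr2:27886175-27886380, plus strand: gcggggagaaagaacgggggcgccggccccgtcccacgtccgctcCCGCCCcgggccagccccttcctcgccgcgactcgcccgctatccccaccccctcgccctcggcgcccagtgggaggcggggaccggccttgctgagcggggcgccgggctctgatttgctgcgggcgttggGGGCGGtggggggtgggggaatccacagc
Col8a1, chr16:57754738-57754987, minus strand: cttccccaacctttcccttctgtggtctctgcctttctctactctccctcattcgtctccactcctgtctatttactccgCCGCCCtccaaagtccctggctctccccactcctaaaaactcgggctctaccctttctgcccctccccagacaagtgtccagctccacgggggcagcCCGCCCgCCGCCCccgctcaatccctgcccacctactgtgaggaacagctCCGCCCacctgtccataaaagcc
Of 44 collagen genes 35 had an entry, with 38 windows of 250 bases. GGGCGG stood in 22 of the 38 and in 32.7% of 32851 windows of all genes. CCAAT stood in 13 of 38 and in 33.8%, and TATAAA in 5 of 38 and in 12.4%. The window of Col5a1 shown is shorter (206 bases), because the annotated gene begins inside the full one. Col1a2 has 1 CCAAT and 2 GGGCGG, Col5a1 has 2 GGGCGG and Col8a1 has 4.

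Among the basement membrane chains at 7 days 6 of 7 were lower, with a median log2 fold change of -0.97, and 2 passed. Without the 2 CRC males 2 of 7 were lower and the median was 0.03. Those that passed were Col4a1 (chr8:11198423-11312889) and Col4a2 (chr8:11312805-11449287), the chains of the type IV network of every basement membrane. Their genes lie head to head on opposite strands, and the spans given here overlap at the starts. In RefSeq's promoter table their start sites are 21 bases apart. Col4a1 had levels of 4.36, 4.74, 2.17 and 2.36 in CRC and 2.53, 3, 1.74 and 1.86 in CRC + E171. Col4a2 had 3.66, 4.49, 1.52 and 1.82 against 1.87, 2.33, 1.18 and 1.43. For both chains the 2 CRC males were above all other arrays of the day, and the 2 CRC females lay within the range of the E171 arrays. The log2 fold changes were -1.12 ± 0.52 and -1.17 ± 0.53 (SE; adjusted p of 0.282 and 0.269, exact permutation p of 0.229 for each). Without the 2 CRC males they were 0.02 and 0.03.

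Col18a1, a basement membrane zone collagen whose C-terminal fragment is endostatin, was at 2.87, 4.84, 1.78 and 1.53 in CRC 7 days and at 1.42, 2.89, 1.12 and 1.7 in CRC + E171. Male 2 of each arm was its highest array, and the difference was -0.97 ± 0.58 (SE, adjusted p = 0.399), or 0.13 without the 2 CRC males. At 21 days its groups did not overlap: 1.66, 1.99 and 1.57 in CRC against 1.29, 1.53, 1.11 and 0.85 in CRC + E171, a difference of -0.55 ± 0.63 (SE, adjusted p = 0.944, exact permutation p = 0.0571). At 14 days the array labelled male 2 of CRC had 1.44 and the other CRC arrays had 3.17 to 3.4. Col7a1, the chain of the anchoring fibrils that tie squamous epithelium to its stroma, differed by -1.01 ± 0.71 at 7 days (adjusted p = 0.481) and by 0.11 ± 0.8 without the 2 CRC males. Col15a1, a relative of Col18a1, differed by -0.19 ± 0.32. Col4a5, an X-linked type IV chain, was the member of this class that was higher (0.16 ± 0.32). Col4a6, its neighbour with a start site 1343 bases away in the promoter table, was well above background on 18 of the 31 arrays and on none of the 4 CRC arrays of 2 days. At that day it was at least 1.71-fold higher by group means in CRC + E171, where it was above background on 4 of 4 arrays (1 of them without a usable value, limma adjusted p = 0.999). The bound sets the mean of the usable E171 arrays (-6.25, -4.73 and -5.69) against the lowest signal well above background on each CRC array (mean of -6.33). It carries no sampling error. Col4a3 and Col4a4, the chains of the kidney glomerulus, were not tested, with a signal well above background on 3 and 5 arrays.

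Among the 22 other chains at 7 days 12 were lower, with a median log2 fold change of -0.18, and 1 passed. Without the 2 CRC males 10 of 22 were lower and the median was 0.09. Col8a1 (chr16:57624256-57754737), a short chain that forms lattices in vessel walls, had the largest difference of all 40 collagens. Its levels were 3.43, 2.64, 0.55 and 1.32 in CRC 7 days and 0.49, 1.57, 0.15 and 0.06 in CRC + E171. The CRC males were again above all others, and male 2 of the E171 arm was above both CRC females. The log2 fold change was -1.42 ± 0.49 (SE; unadjusted p = 0.00758, adjusted p = 0.201, exact permutation p = 0.114), and without the 2 CRC males it was -0.37 ± 0.48. Its partner Col8a2 differed by -0.36 ± 0.43.

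The beaded filament chains of type VI collagen, which link fibrils to cells, differed by less than Col8a1 and none passed. Col6a1 was at 4.76, 4.71, 3.75 and 4.35 in CRC 7 days and at 4.03, 4.19, 3.58 and 3.96 in CRC + E171, which differ by -0.46 ± 0.27 (SE, limma adjusted p = 0.391), or by -0.11 without the 2 CRC males. Col6a3 was at -0.29, 0.55, -0.52 and -0.28 against -0.18, 0.24, -0.65 and -0.45, a log2 fold change of -0.13 ± 0.32. The arrays of both groups were mixed for Col6a3, whose difference was 0.14 without the 2 CRC males. Col6a2 differed by -0.32 ± 0.25. The differences of the related chains Col6a4 and Col6a5 were above 0, at 0.52 ± 0.53 and 1.04 ± 0.56 (adjusted p of 0.662 and 0.349), and did not pass. They were -0.02 and 0.19 without the 2 CRC males.

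Of the 9 fibril-associated chains, which sit on the surface of fibrils, 4 were lower at 7 days and none passed. Their differences ran from -0.8 ± 0.4 for Col14a1 (adjusted p = 0.315, exact permutation p = 0.0571) to 0.54 ± 0.28 for Col20a1 (adjusted p = 0.327), and without the 2 CRC males these were -0.97 and 0.19. Of the 4 transmembrane chains 1 was lower: Col17a1, an attachment protein of squamous epithelium, at -0.84 ± 0.9 (-0.1 without the 2 CRC males). That value averages features that went against each other on this day (0.59 and -2.27), so it is no measure of the gene. Col6a6 and Col10a1, the chain of growth plate cartilage, were well above background on no array and were not tested.

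**Figure D3:**
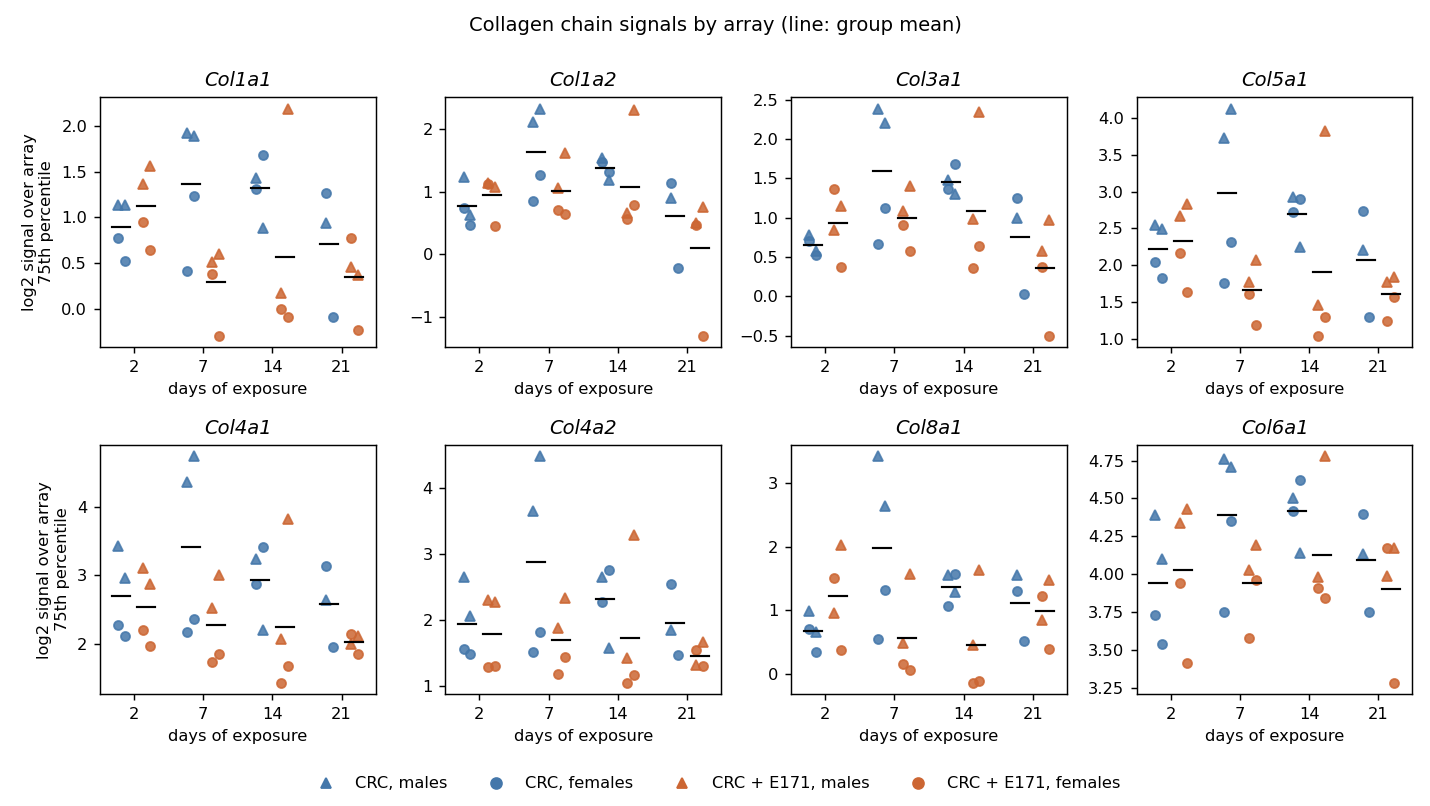
Log2 signal over the array's 75th percentile for 8 collagen genes on each of the 31 arrays, by day, arm and sex, with the group mean as a line. At 7 days the 2 CRC males lie above the other CRC arrays in all 8 panels (Col4a1 at 4.36 and 4.74 against 2.17 and 2.36), and at 14 days male 2 of CRC + E171 lies above its group.

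At 2 days no collagen passed, while 0.172% of all genes passed lower and 1.55% higher. The collagens were 13 lower and 27 higher, with a median log2 fold change of 0.12 against 0.06 for all genes, and none had an unadjusted p under 0.05 by limma. Of all genes 40.8% were lower. The smooth muscle markers (8 of 8, median 0.47), fibroblast (7 of 8, 0.36), glia (5 of 6, 0.43), squamous epithelium (7 of 7, 0.64), distal hindgut position (4 of 4, 0.38) and pancreatic acinar markers (5 of 5, 1.26) were higher beside them, adipocyte markers were lower (7 of 8, median -0.83), and none passed. Their part was not tested. The levels of Col1a1, Col3a1, Col4a1, Col5a1 and Col8a1 overlapped between the groups on that day.

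At 14 days 28 of 40 collagens were lower in CRC + E171 (median log2 difference of -0.27, and 0.01 over all genes). None passed lower, where 3.1% of all genes did, and 1 passed higher, where 3.24% did. That gene was Col23a1, a transmembrane chain, with levels of -4.54, -4.15, -3.59 and -2.78 in CRC + E171 and -4.4, -4.75, -4.33 and -4.61 in CRC. Only male 1 of the E171 arm lay within the CRC range. The log2 fold change was 0.76 ± 0.33 (SE, unadjusted p = 0.0286, adjusted p = 0.59, exact permutation p = 0.0857). The highest levels, -3.59 and -2.78, were those of the 2 females with low distal hindgut position markers, and without them the difference was 0.18 ± 0.35. With scan day as a block Col8a2 passed lower (-0.94 ± 0.45) and Col19a1, Col23a1 and Col26a1 passed higher. None of these had a limma adjusted p under 0.05, and the share of all genes is not given for that setting. With a block for labelled sex and number Col1a1 (-0.76 ± 0.36) and Col8a1 passed lower beside Col23a1.

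The collagens of CRC + E171 14 days split by array. Male 2 was at 3.82 for Col4a1, 3.29 for Col4a2 and 1.63 for Col8a1, while the other 3 arrays were at 1.43 to 2.08, 1.04 to 1.42 and -0.15 to 0.45. The CRC arrays of that day were at 2.21 to 3.41, 1.58 to 2.76 and 1.06 to 1.57, above those 3 arrays in all 3 genes. Without male 2, 11 collagens passed lower and Col23a1 passed higher, the median was -0.51, and 5.96% of all genes passed lower and 4.8% higher. The 11 were Col1a1 (-1.3, adjusted p = 0.139), Col2a1, Col3a1, Col5a1 (-1.44, adjusted p = 0.161), Col5a2, Col4a1 (-1.2), Col4a2 (-1.1), Col8a1 (-1.31), Col6a3, Col12a1 and Col16a1. They include the 5 that passed at 7 days with all arrays, and none had a limma adjusted p under 0.05. In that setting 8 of 8 fibroblast (median -0.75, 4 passed), 8 of 8 smooth muscle (-0.75, 2 passed), 6 of 8 endothelium (-0.54, 2 passed), 5 of 6 macrophage (-0.37, 2 passed), 5 of 6 neutrophil (-3, 1 passed) and 4 of 4 distal hindgut position markers (-5.85, 4 passed) were lower too. Without females 1 and 2 of the group instead, 20 of 40 collagens were lower, the median was -0.01, and Col17a1 alone passed, higher (2.52 ± 1.06, limma adjusted p = 1), where 1.43% of all genes passed higher and 1.65% lower. The 2 features of Col17a1, which had opposite signs at 7 days, both had a difference above 0 at 14 days with all arrays (1.72 and 0.89), and squamous epithelium markers were 1 of 7 lower (median 1.44) without these females. The distal hindgut position markers of these females stood at -5.94 and -7.23, against 0.28 and 0.98 in the males of the group and 0.47 to 2.07 in CRC 14 days. All 8 smooth muscle markers were lower at 14 days (median -0.59, 1 passed), as were 7 of 8 fibroblast (median -0.31, 1 passed), 6 of 8 endothelium (median -0.25), 7 of 8 adipocyte (median -0.7, none passed), 5 of 6 macrophage (median -0.23, while 1 passed higher) and 4 of 6 neutrophil markers (median -1.01, 1 passed). The adipocyte level was -4.11 and -3.24 in the males of CRC + E171, 0.61 and 2.33 in its females and -0.38 to 0.89 in CRC, and male 2 of CRC + E171 had squamous epithelium markers at 3.81. Without the 2 females 5 of 8 fibroblast, 8 of 8 smooth muscle and 3 of 8 endothelium markers were lower and none passed, while 5 of 8 adipocyte markers passed lower (median -3.26). The part of these in the collagen values was not tested.

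At 21 days 35 of 40 collagens were lower in CRC + E171 (median log2 difference of -0.34), while 48% of all genes were lower and their median was 0.02. By class, 10 of 11 fibrillar (median -0.35), 7 of 7 basement membrane (-0.38) and 18 of 22 other chains (-0.28) were lower. The mean over the 40 collagens, relative to the 31 arrays, was 0.07, 0.35 and -0.33 in CRC and -0.4, -0.11, -0.32 and -0.35 in CRC + E171. Female 2 of CRC thus lay among the E171 arrays. Female 1 of CRC, the highest, had squamous epithelium markers at 4.05, smooth muscle at 1.24, skeletal muscle at 1.27 and fibroblast markers at 0.95. Squamous epithelium markers were also at 2.14 on female 1 of CRC + E171. The counts of lower collagens on this day are not given without these arrays. The smooth muscle markers (7 of 8 lower, median -0.51), the fibroblast (6 of 8, median -0.31), endothelium (7 of 8, median -0.25), skeletal muscle (7 of 8, median -0.45) and macrophage markers (6 of 6, median -0.38) were lower beside them, and so were glia (5 of 6, median -0.5) and squamous epithelium markers (5 of 7, median -1.26). All 5 pancreatic acinar markers were higher (median 2.9), with female 2 of CRC + E171 at 9.35. None of these markers passed, and their part was not tested. The single gene that passed was Col28a1, a relative of the type VI chains, lower at -5.84, -5.13, -5.85 and -6.2 in CRC + E171 against -4.84, -4.69 and -5.47 in CRC. Among all genes 1.82% passed lower and 0.844% higher. Its log2 fold change was -0.76 ± 0.35 (SE, unadjusted p = 0.0416, adjusted p = 0.855, exact permutation p = 0.0857). It was not well above background on 1 of the 4 E171 arrays. Col28a1 no longer passed with quantile normalization, with the normexp background correction, or with certain single arrays left out, as listed in the closing section.

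Collagens without any overlap between the arrays of both arms numbered 1 at 2 days, where 3.91% of all genes had none, 0 at 7 days (4.85%), 0 at 14 days (5.9%) and 2 at 21 days (8.02%). They were Col4a6 at 2 days and, at 21 days, Col18a1 and Col9a1, a fibril-associated chain of cartilage, which was not well above background on 2 of the 4 E171 arrays. A limma test of whether the difference between the arms varied over the 4 days gave no gene with an adjusted p under 0.05. Among the collagens Col8a1 alone had an unadjusted p under 0.05 in it (limma adjusted p = 0.717), as did 6.52% of all genes.

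Each group held both sexes, and the collagens were also compared by sex in a limma fit over 16 groups of arm, day and sex, with 2 arrays against 2 (and 1 CRC male at 21 days). In males at 7 days 4 of 40 collagens had an adjusted p under 0.05, where 15.3% of all genes had, and all 4 were lower: Col4a2 (-1.98 ± 0.49, adjusted p = 0.0112), Col4a1 (-1.78 ± 0.46, 0.0143), Col8a1 (-2 ± 0.51, 0.0143) and Col5a1 (-2 ± 0.54, 0.0181). In females none had, with -0.37, -0.46, -0.83 and -0.64 for the same genes. The median over the 40 collagens was -0.68 in males and -0.05 in females. All 4 values in males rest on the 2 CRC arrays described above, and the count was 5 without CRC male 1, 2 without CRC male 2 and 0 without male 1 of CRC + E171 (9.24, 19.5 and 5.49% of all genes), where a lone array was taken to vary like the other groups. The difference between the sexes itself had no adjusted p under 0.05 among the collagens (Col4a2 the smallest, a male minus female difference of -1.61 ± 0.69, adjusted p = 0.219), and 4 had an unadjusted p under 0.05 (18.2% of all genes).

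At 14 days the order of the sexes was the opposite, with a median over the collagens of 0.035 in males and -0.5 in females. Col4a1 differed by 0.23 in males and by -1.59 in females (male minus female 1.81 ± 0.65, unadjusted p = 0.012, adjusted p = 0.431). The females of CRC + E171 on that day are the 2 arrays with low distal hindgut position markers. The male arrays include male 2 of CRC + E171 and the array labelled male 2 of CRC whose Xist level was female-like. With 27 of 40 collagens lower in females and 17 in males, 6 had an unadjusted p under 0.05 for the difference (8.18% of all genes) and none had an adjusted p under 0.05. At 2 days no collagen had an unadjusted p under 0.05 for it. At 21 days the medians were -0.305 in males and -0.37 in females, where the male value rests on 1 CRC male, so no test is given.

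The arms of a day lay on different slides, and each slide held CRC arrays of one day and CRC + E171 arrays of another. Within slides, what could be estimated was therefore the average of the differences at 7 and 21 days and the average of those at 2 and 14 days. Over 7 and 21 days 35 of 40 collagens were lower within slides, with a median log2 difference of -0.32 against 0.01 for all genes, and Col1a1 and Col5a1 passed lower, where 2.67% of all genes did. Without the 2 males of CRC 7 days 31 of 40 were lower, the median was -0.15, and none passed. Over 2 and 14 days 23 of 40 were lower, with a median of -0.07. Col8a2 passed lower, where 0.535% of all genes did, and Col4a6 passed higher, where 1.73% did. Without male 2 of CRC + E171 14 days 24 of 40 were lower (median -0.16), Col2a1 and Col5a1 passed lower (1.05% of all genes) and Col4a6 higher (2.07%). Without the 2 females of that group 18 of 40 were lower (median 0.03), Col8a2 passed lower (0.485% of all genes) and Col17a1 higher (1.37%). All CRC arrays lay in column 2 of their slides and all CRC + E171 arrays in column 4, so arm and position cannot be told apart within slides either. The smallest limma adjusted p among collagens was 0.508 in the first and 0.909 in the second.

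Chains that assemble into the same protein were compared over the 31 arrays, in 9 pairs, by Pearson's r and Spearman's rho with permutation p-values adjusted over the 9. Col4a1 and Col4a2 were the closest (r = 0.984, rho = 0.962), and r was 0.979 without the 2 arrays farthest from the median of Col4a1 and 0.986 after the group means were subtracted. Col6a1 and Col6a2 followed (r = 0.889, rho = 0.892), then Col5a1 and Col5a2 (0.841, 0.758), Col6a1 and Col6a3 (0.805, 0.818) and Col1a1 and Col1a2 (0.787, 0.755). Col1a1 and Col3a1, which are found in the same fibrils, had r = 0.803 and rho = 0.742. For these 6 pairs the permutation p for r was 1e-05, the smallest that 100000 resamples can give (adjusted p = 1.5e-05), and r stayed at 0.721 or more without the 2 farthest arrays. Col9a2 and Col9a3 were weaker (r = 0.473, rho = 0.474, permutation p = 0.00803, adjusted p = 0.0103). For Col11a1 and Col11a2 (r = 0.202, permutation p = 0.274) and for Col8a1 and Col8a2 (r = 0.114, permutation p = 0.539) the test was not passed. Pairs with Col4a3, Col4a4 or Col4a6 were not computed, because these chains were not tested or lacked values. The arrays fall into 8 groups, and without the 3 arrays with low colon epithelium markers r was 0.976 for Col4a1 and Col4a2, 0.886 and 0.791 for the type VI pairs, 0.645 for Col5a1 and Col5a2, 0.669 for Col1a1 and Col1a2, and 0.68 for Col1a1 and Col3a1. Over all pairs within a class the median r was 0.418 for the fibrillar (55 pairs), 0.589 for the basement membrane (15 pairs of 6 chains) and 0.0342 for the other chains (231 pairs), given as a description.

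**Figure D4:**
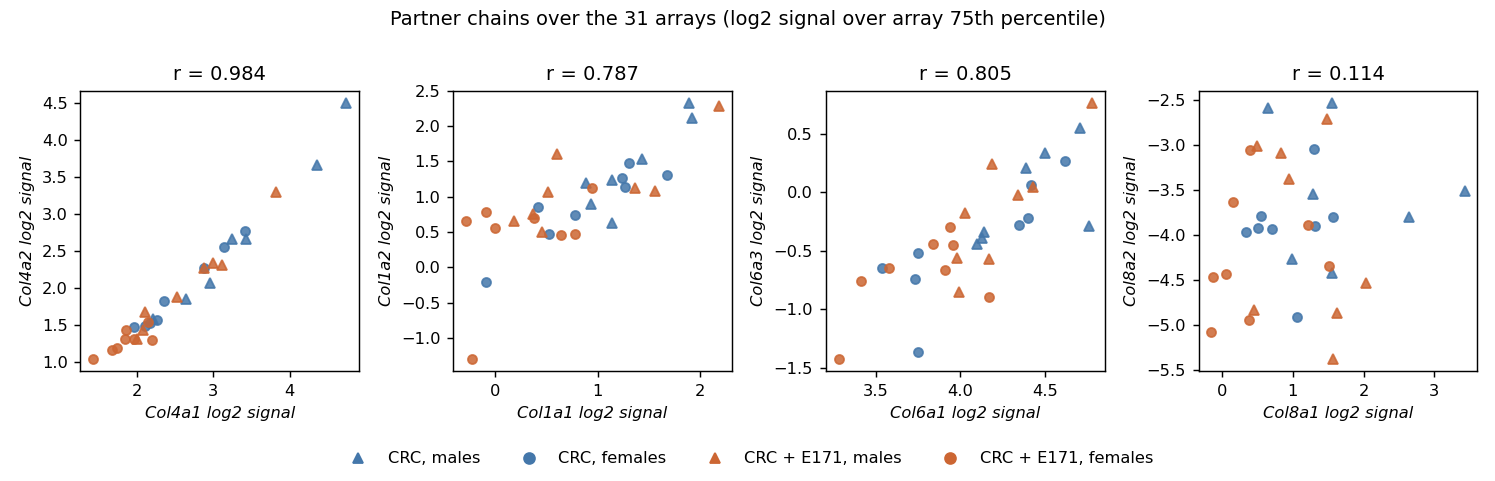
Log2 signal of 2 partner chains over the 31 arrays, 1 point per array, for Col4a1 and Col4a2, Col1a1 and Col1a2, Col6a1 and Col6a3, and Col8a1 and Col8a2. The points of Col4a1 and Col4a2 lie on a line (r = 0.984), while those of Col8a1 and Col8a2 do not (r = 0.114).

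Several genes were read by more than 1 feature. Of 20 such genes 12 had the same sign at 7 days on every feature kept. Col1a1 had 4: the brightest pair, which overlap on mm9 (chr11:94813115-94813174 and chr11:94813075-94813134), differed by -1.33 and -1.34, and another (chr11:94814188-94814247) by -1.49. The remaining one (chr11:94800628-94800687) was well above background on 19 arrays and differed by -0.11, with r = -0.0997 to the brightest over the arrays. Features of a gene were averaged, this dim one included. The features of Col1a2 gave -0.71, -0.66 and -0.52 and those of Col3a1 -0.91, -0.66 and -0.25. With the brightest feature alone in place of the average, 7 collagens passed at 7 days, the 5 above with Col1a2 and Col3a1. The features of Col17a1 went against each other (0.59 and -2.27) at 7 days.

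**Figure D5:**
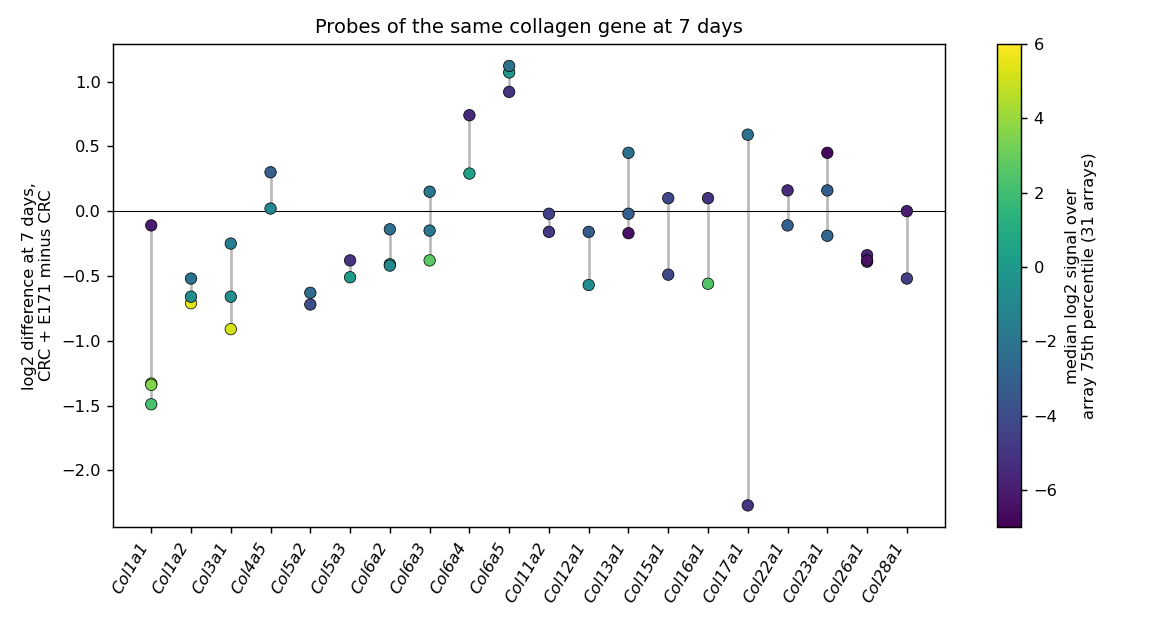
Log2 difference of CRC + E171 minus CRC at 7 days for each feature of the 20 collagen genes with more than 1 feature kept, with the colour giving the feature's median log2 signal over the 31 arrays. The bright features of Col1a1, Col1a2 and Col3a1 lie lower than their dim ones, and the 2 features of Col17a1 lie at 0.59 and -2.27.

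The course in each arm was compared with 2 days of the same arm. No gene had a limma adjusted p under 0.05 in any of the 6 comparisons. In CRC at 7 days 6 of 40 collagens had an unadjusted p under 0.05, all higher (17.2% of all genes in either direction and 8.87% higher): Col8a1 (1.31 ± 0.49), Col3a1 (0.95 ± 0.39), Col5a2 (0.95 ± 0.39), Col23a1 (0.88 ± 0.33), Col1a2 (0.86 ± 0.42) and Col16a1 (0.71 ± 0.29). The median over the 40 was 0.46, and without the 2 CRC males it was 0 and no collagen had such a p. Beside them 8 of 8 fibroblast (7 at this p, median 1.01), 8 of 8 skeletal muscle (7 at this p, 2.41), 8 of 8 endothelium (5 at this p, 0.69) and 6 of 6 macrophage markers (2 at this p, 0.58) were higher and 9 of 9 colon epithelium markers lower (9 at this p, -2.27). Pancreatic acinar (4 of 5, median 2.77), neutrophil (4 of 6, median 2.44, 1 at this p) and squamous epithelium markers (6 of 7, median 2.04) were mostly higher too. Without the 2 CRC males the fibroblast median was 0.56 and the skeletal muscle median 1.34 (4 at this p), while the endothelium median was 0.08 and the colon epithelium median -0.16. The pancreatic acinar, neutrophil and squamous epithelium medians were then 2.54, -0.61 and 0.36. In CRC at 14 days 1 did (Col3a1, 0.81 ± 0.39; 3.98% of all genes), whose CRC levels of 1.48, 1.3, 1.36 and 1.68 lay above those of 2 days (0.78, 0.58, 0.7 and 0.53). The CRC median was then 0.31, with 30 of 40 collagens higher, and 8 of 8 fibroblast (3 at this p, median 0.68), 8 of 8 smooth muscle (median 0.54) and 8 of 8 endothelium markers (median 0.51) were higher too. In CRC at 21 days 1 did (Col4a6, at least 2.46-fold higher by group means, against 5.45% of all genes). The median was 0.11, with 8 of 8 fibroblast (1 at this p, median 0.57) and 8 of 8 smooth muscle markers (1 at this p, 0.79) higher. The part of these cell types in the course was not tested.

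In CRC + E171 the medians were -0.06, -0.04 and -0.33. The smooth muscle markers were 8 of 8, 8 of 8 and 6 of 8 lower on these days (medians of -0.27, -0.53 and -0.26), and the distal hindgut position markers 4 of 4 lower at 7 and 14 days (-2.82 and -3.91, the latter with 4 at an unadjusted p under 0.05). Pancreatic acinar markers were 5 of 5 lower at 7 and 14 days (medians of -3.3 and -3.12), squamous epithelium 7 of 7 lower at 7 days (-0.66) and neutrophil 6 of 6 lower at 21 days (-0.75). Adipocyte markers were 7 of 8 higher at 7 and 21 days (0.97 and 0.88) and endothelium 8 of 8 higher at 14 days (0.28, 2 at this p). The part of these lists was not tested. At 7 days 1 collagen had an unadjusted p under 0.05 (Col23a1, 0.88 ± 0.33; 4.09% of all genes), highest on female 2 (-2.58), the array with low distal hindgut position markers, and at 14 days 1 (Col6a5, 1.49 ± 0.56; 12.1%). At 21 days there were 4 (13.3% of all genes): Col8a2 was higher (1.11 ± 0.43), and Col15a1 (-0.72 ± 0.32), Col6a3 (-0.68 ± 0.32) and Col13a1, a transmembrane chain (-0.64 ± 0.26), were lower. The value of Col13a1 averages features that did not move together over the arrays, with r of -0.354 and -0.318 to the brightest. For Col15a1 that r was 0.363. Counted in either direction, the share of the collagens was below that of all genes in each of the 6 comparisons, while 15% of the collagens and 8.87% of all genes were higher at this p in CRC at 7 days. Over the 8 groups, 14 of 40 collagens had their highest mean in CRC 7 days and 20 had their lowest in CRC + E171 21 days. Without the 3 arrays that stood apart, CRC 14 days held the highest mean of 18 collagens and CRC 7 days of 3, and the lowest means were in CRC + E171 14 days (14) and 21 days (13).

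The genes that make, cross-link, bind and cut collagen were counted beside the chains. Of 70 listed genes 68 were tested. At 7 days 56 were lower with E171, 21 passed lower and 1 higher (5.48% and 6.93% of all genes), and without the 2 CRC males 43 were lower and none passed. Of the 24 tested for processing and secretion, 22 were lower and 8 passed. Among those fixed for naming, Plod2, a lysyl hydroxylase, passed (-0.7 ± 0.31, adjusted p = 0.265). Its relative Plod1 (-0.33 ± 0.27), the prolyl hydroxylase subunits P4ha1 (-0.28 ± 0.27) and P4ha2 (-0.82 ± 0.42) and the collagen chaperone Serpinh1 (-0.5 ± 0.5) did not. All 6 cross-linking genes were lower and 2 passed, Lox, which oxidises lysine for the cross-links (-2.53 ± 1, adjusted p = 0.226), and Loxl1 (-1.31 ± 0.56), while Loxl2 was at -0.8 ± 0.43. With the 2 CRC males left out, Lox was at -0.04 ± 0.9, Loxl1 at -0.24 ± 0.6 and Plod2 at -0.1 ± 0.29.

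All 6 collagen-cutting genes were lower at 7 days and 5 passed: the collagenases Mmp8 (-3.33 ± 0.92, adjusted p = 0.197) and Mmp13 (-2.99 ± 1.1), the gelatinases Mmp9 (-1.94 ± 0.9) and Mmp2 (-0.93 ± 0.44), and the lysosomal protease Ctsk (-1.47 ± 0.48). They were at -0.63, 0.49, 0.27, -0.17 and -0.83, in the same order, without the 2 CRC males. Mmp8 is a granule protein of neutrophils, whose markers were highest on the 2 CRC males. Of the 9 receptors, Ddr2, a receptor kinase for fibrillar collagen (-0.76 ± 0.34), and Mrc2, an uptake receptor (-0.96 ± 0.45), passed lower, and the integrin chain Itga10 (1.23 ± 0.56) passed higher, at 0.61 ± 0.64 without the 2 CRC males. Ddr1 was at -0.01 ± 0.19. Of the 15 basement membrane partners of type IV collagen 3 passed lower, Lama5 (-1.35 ± 0.36), Nid2 (-1.25 ± 0.45) and Hspg2 (-0.65 ± 0.28), and of 8 proteoglycans and Sparc 1 did (Bgn, -0.71 ± 0.33). At 2 days none of the 68 passed. At 14 days 1 passed lower (1.47% of the 68, and 3.1% of all genes), which was Itga10 again, with the opposite sign to 7 days (-1.23 ± 0.56, limma adjusted p = 0.594), and without male 2 of CRC + E171 16 did (5.96% of all genes). Without the 2 females of that group 29 of the 68 were lower and 1 passed lower (1.65% of all genes), against 50 lower with all arrays. At 21 days 1 passed lower (Loxl3, -0.76 ± 0.26; 1.82% of all genes) and 1 higher (Ppib, 0.62 ± 0.17; 0.844%).

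Several marker lists were lower beside the collagens at 7 days, and others were flat or higher. All 8 fibroblast markers (collagens left out of the list) were lower with E171 (3 passed), as were all 8 endothelium (4 passed), 8 skeletal muscle (6 passed) and 6 macrophage markers (3 passed) and 5 of 6 neutrophil markers (1 passed), where 5.48% of all genes passed lower. All 5 pancreatic acinar (median -4.93, 3 passed), 5 of 7 squamous epithelium (median -2.08, none passed) and all 4 distal hindgut position markers (median -1.65, none passed) were lower too, while all 9 colon epithelium markers passed higher (6.93% of all genes), with a median of 2.09. The mean fibroblast level, relative to the 31 arrays, ran from -0.25 to 1.67 in CRC and from -0.37 to -0.17 in CRC + E171. Without the 2 CRC males 7 of 8 fibroblast markers were lower with a median of -0.29 (1 passed), the endothelium median was -0.07, the colon epithelium median was 0.06, and 6 skeletal muscle markers passed lower. The smooth muscle markers were 5 of 8 lower with all arrays (median -0.06, none passed). Adipocyte markers were 6 of 8 higher (median 0.14) and glia markers 4 of 6 higher (median 0.17), with 1 passing higher in each list. The part of these cell types in the collagen differences was not tested.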

How the data were processed

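RNA of the distal colon of 31 mice was hybridised to 31 one-colour Agilent mouse arrays, 1 mouse per array, so that replicates are separate animals. The deposited scanner files hold intensity values per spot, background-subtracted by Agilent Feature Extraction (version 10.7.3.1 per the file headers). The authors' value table holds log2 values of 42568 features on the same 31 arrays, made after spots were removed by flags and low signal, missing values were imputed by nearest neighbours and spots were merged. Its normalization is not given in the sources used here, and it served as an alternative.

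From the scanner files, spots flagged as outliers were left out, the log2 processed signal minus the log2 of its array's 75th percentile was taken, and spots of a feature were averaged. The filter asked, in 1 group or more, for a signal well above background on at least 60% of the arrays together with a group average of at least 4 on the log2 scale, and 42787 of 56605 features met it. Features were named through RefSeq's gene table (GRCm38.p6) by accession (32927), symbol (10200) or synonym (520), the 91 collagen features by the array's own symbol, and 12867 matched no gene. Features of a gene were averaged, giving 19797 genes, of which 56 had missing values on some array. The precision is limited by the number of arrays, not by a sequencing depth.

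All 31 arrays entered 1 fit over the 8 groups with limma 3.58.1 in R 4.3.3, with p-values adjusted by Benjamini-Hochberg over all genes. A gene passed with E171 where its linear fold change was at least 1.5 and its unadjusted p under 0.05, the thresholds of the study's methods read on the linear scale. The course over days used adjusted p under 0.05. All folds are CRC + E171 over CRC of the same day, except in the course. Exact permutation tests of single genes were 2-sided. The fitting code was tested on simulated data.

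Full values were set for Col1a1, Col1a2, Col3a1, Col4a1, Col4a2, Col6a1, Col6a3 and Col18a1 and for the collagens that passed. The members, the lists of pathway and marker genes and the tests were chosen with earlier results of these data known. Alternatives covered the normalization, background correction, filter, features per gene, the authors' table, the arrays in the fit, sex, slide, replicate number and scan day as terms, the threshold and each array left out. Array coordinates are those of the file headers' build mm9, and gene and promoter coordinates those of GRCm38.p6. Both were read as given, with no conversion.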

Additional observations from a re-analysis of the deposited data

Results flagged for a closer look

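Within groups of 4 arrays, 84 sets of values of the collagens named with every array value were examined for 1 array standing far from the other 3, and 10 sets held one. The threshold is one that chance passes in about 1 in 20 independent sets, and these sets are not independent, since the genes share arrays. Of these 10 values 6 came from male 2 of CRC + E171 14 days, always as the highest of its group, with log2 levels over the 75th percentile of 2.19 for Col1a1, 2.29 for Col1a2, 3.29 for Col4a2, 3.82 for Col5a1, 4.78 for Col6a1 and 0.76 for Col6a3. The same array had the lowest level of colon epithelium markers of its group (-1.51) and a neutrophil marker level of 3.71. In CRC 14 days the array labelled male 2 stood below its group for Col18a1, at 1.44. The type I chain Col1a2 was low on female 2 of CRC + E171 at 2 days (0.46) and on female 2 of CRC + E171 at 21 days (-1.29). Col28a1, a relative of the type VI chains, was at -5.64 on female 1 of CRC 7 days.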

How the results depend on the processing

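At 2 days no collagen passed in the reported fit, and 1 did with the authors' table and 1 with only the arrays compared. At 7 days 5 passed, 1 did with scan day as a block, 1 without both CRC males, 3 with only the arrays compared and 0 at a log2 fold change of 1.5. Leaving out 1 array gave 1 to 12 (1 without CRC male 1, 3 without CRC male 2, 12 without CRC female 1, 8 without E171 male 2, 3 without E171 female 1 and 2 without E171 female 2). At 14 days 1 passed, 2 with normexp, 3 without a filter, 0 with the stricter filter, 2 with the authors' table, 3 with sex as a covariate, 4 with scan day and 0 at a log2 fold change of 1.5. Leaving out 1 array gave 0 to 12 (12 without E171 male 2, 2 without E171 male 1, and 0 without CRC male 2, CRC female 2, E171 female 1 or E171 female 2). At 21 days 1 passed, 0 with quantile normalization, 0 with normexp, 2 with the authors' table, 2 with the brightest feature and 0 at a log2 fold change of 1.5. Leaving out 1 array gave 0 to 3 (3 without CRC female 2, and 0 without CRC male 1, CRC female 1, E171 male 1, E171 female 1 or E171 female 2). The cause of these changes was not tested.

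In the course, CRC at 7 days against 2 days had 0 collagens with an adjusted p under 0.05, and 0 to 2 with 1 array left out (2 without CRC 7 days female 1). Males at 7 days had 4 such collagens, 6 with quantile normalization and 0 to 5 with 1 array left out. Without the slide term 5 passed over 7 and 21 days and 1 over 2 and 14 days, against 2 and 2 with it, and 0 over 7 and 21 days without both CRC 7 days males.

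Without both CRC males the differences at 7 days turned to 0.13 for Col18a1, 0.1 for Col3a1, 0.02 for Col4a1, 0.03 for Col4a2 and 0.14 for Col6a3, and the median over the collagens to 0.06. Without both E171 females of 14 days those at 14 days turned to 0.21 for Col18a1, 0.09 for Col1a2, 0.21 for Col3a1, 0.02 for Col4a1, 0.04 for Col4a2 and 0.02 for Col6a3. These settings and scan day were chosen after seeing the data. With 1 array left out the sign also turned for genes with differences near 0: at 2 days Col18a1 ran from -0.21 to 0.11, Col4a1 from -0.34 to 0.1, Col4a2 from -0.32 to 0.09 and Col6a1 from -0.04 to 0.3, at 7 days Col6a3 from -0.29 to 0.1 and at 21 days Col6a1 from -0.36 to 0.02. The r of Col11a1 with Col11a2 was -0.104 with quantile normalization and -0.0779 with the brightest feature. Among the recomputed differences of single genes, 516 kept their direction and side of the threshold, 33 no longer passed, 14 newly passed and 23 turned.

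Arrays of the 2 arms share a labelled sex and number. Their deviations from the group means correlated from -0.181 to 0.479 per pair, and from 0.208 to 0.479 in the 3 pairs of 21 days. The labels do not say what a number marks, and arrays numbered 1 lay on slides 1 to 4 and those numbered 2 on slides 5 to 8. With the replicate block 5 collagens passed at 7 days, 3 at 14 days (Col1a1, Col8a1 and Col23a1) and 1 at 21 days, against 5, 1 and 1 without it.

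With 3 or 4 arrays per group the precision is low. Collagens near background (Col4a6, Col25a1, Col9a3, Col9a1, Col19a1, Col11a1 and Col28a1) were not well above it on some arrays, and Col4a3, Col4a4, Col6a6 and Col10a1 were too dim to test. The arms of a day lay on different slides, and in different slide columns, so arm and slide cannot be told apart within a day, and the values estimated within slides are the 2 averages over days.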
